A study of Mus musculus with 8 samples.

Results

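The transcription factor genes Prdm1, Bach2, Satb1, Tcf7, Lef1, Id2, Id3, Bcl6, Myb and Tox, which hold regulatory T cells (Tregs) in a resting state or drive them towards an effector state, were taken by symbol from a table of 19703 genes. All 10 had a row, and all 10 passed the filter for testing (a mean normalized count of at least 10). Tregs are CD4 T cells that depend on FOXP3 and hold immune responses in check. They were wild type (WT in the titles), came from mice with a Foxp3-GFP reporter and were sorted, and every sample was cultured for 6 days with beads engaging CD3 and CD28 in IL6, IL23 and IL1B, a cytokine mix that favours the Th17 fate. The 2 groups were Tregs cultured with FcCD70, a soluble form of the ligand of the costimulatory receptor CD27, and Tregs cultured without it (untreated). By the labels each group had 4 samples, and 3 FcCD70 and 4 untreated libraries have a column of their own. The title and the treatment field of each of the 8 samples contradict each other, so the titles, which match the column names, were used for grouping. If the titles are wrong, every direction given here turns round.

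Resting Tregs resemble naive T cells: they keep up TCF-1 and LEF-1 (from Tcf7 and Lef1) and the repressor BACH2, which restrains genes that T cell receptor signals would otherwise switch on. Effector Tregs turn on Blimp-1 (from Prdm1) and ID2 and make more suppressive molecules, and BACH2 and BCL6 are both known as repressors of Prdm1. ID proteins dimerize with the E protein transcription factors and keep them off DNA. The question the study's title poses is what CD27 signalling does to Treg transcription under Th17 conditions.

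Promoter sequences are shown for 4 members: Lef1 and Myb (whose same-numbered pairs each went a single way) and the antagonists Prdm1 and Bach2. The pairs of Tcf7 also went a single way, and its windows are not shown. They are the 250 bases before a RefSeq transcript start (build GRCm38.p6), written 5′ to 3′ on the gene's strand, and none overlaps an annotated exon of its gene. Capitals mark matches on either strand to the E-box CANNTG bound by E proteins, to CTTTGA of TCF/LEF factors and to TGANTCA, a core shared by AP-1 and BACH factors.
Prdm1, chr10:44458749-44458998, minus strand: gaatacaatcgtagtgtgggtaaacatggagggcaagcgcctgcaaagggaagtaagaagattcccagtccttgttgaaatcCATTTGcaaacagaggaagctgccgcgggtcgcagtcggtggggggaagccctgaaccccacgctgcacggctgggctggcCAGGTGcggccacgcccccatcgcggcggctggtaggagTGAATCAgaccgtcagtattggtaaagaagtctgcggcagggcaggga
Bach2, chr4:32417185-32417434, plus strand: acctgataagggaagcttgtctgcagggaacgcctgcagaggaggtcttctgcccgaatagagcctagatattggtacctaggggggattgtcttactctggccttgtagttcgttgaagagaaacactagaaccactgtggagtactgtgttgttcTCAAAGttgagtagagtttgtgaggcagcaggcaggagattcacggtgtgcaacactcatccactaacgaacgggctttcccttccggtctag
Lef1, chr3:131110047-131110296, plus strand: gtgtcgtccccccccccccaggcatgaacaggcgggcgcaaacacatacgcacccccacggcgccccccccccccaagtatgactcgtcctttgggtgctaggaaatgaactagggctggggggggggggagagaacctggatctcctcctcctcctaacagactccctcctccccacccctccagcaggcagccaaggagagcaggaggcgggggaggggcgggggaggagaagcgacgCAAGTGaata
Myb, chr10:21160985-21161234, minus strand: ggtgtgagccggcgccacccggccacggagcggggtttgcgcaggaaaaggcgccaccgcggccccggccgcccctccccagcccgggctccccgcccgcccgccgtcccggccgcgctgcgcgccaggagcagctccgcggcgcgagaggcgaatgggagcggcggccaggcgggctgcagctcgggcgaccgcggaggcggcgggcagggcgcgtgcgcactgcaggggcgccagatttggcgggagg
The Prdm1 window held 2 E-boxes and a TGANTCA match 48 bases before the start, Lef1 an E-box 10 bases before it, Bach2 a CTTTGA match and Myb none of these motifs. No motif overlapped another. Of 32851 such windows in the reference table, 66.2% hold an E-box, 13.8% CTTTGA and 6.75% TGANTCA. A match is only a run of letters. The Prdm1 and Bach2 windows lie inside the annotated gene, away from its outer start, and Lef1 had further windows in the table. Of the 10 members, 9 had a window in the table.

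Each library held between 18159685 and 23527899 reads assigned to genes. The FcCD70 library numbered 2 stood apart: its median absolute log2 distance from the median of the other libraries was 0.285, against 0.114 to 0.187 for each of the other 6 libraries. It also had the lowest normalized count of Foxp3, 2788, against 4811 to 6585 in the rest, and its part in the results was not tested beyond leaving it out. All 9 markers of regulatory and CD4 T cells were detected, with a summed level of 5127 to 5322 RPM (read counts scaled to a common library total) in FcCD70 and 5125 to 5409 RPM in untreated libraries. The sum hides opposite shifts in the FcCD70 library numbered 2. Cd3d (1048 RPM) and Cd3g (781 RPM) were highest there. Il2ra (676 RPM), Cd4 (529 RPM) and, by little, Cd3e (339 RPM) were lowest there, as was Foxp3. Ctla4, Ikzf2 and Cd28 lay within the range of the other libraries. Bach2, Bcl6 and Prdm1 also act in B cells, so B cell markers were read beside them. Ighm, the IgM heavy chain gene, had 1585 to 1842 RPM in every library, and Ighd, the IgD heavy chain gene, 21.2 to 27.3 RPM. Other B cell genes were low: Cd79b had 5.02 to 9.36 RPM, Ebf1 1.87 to 5.68 RPM, Ms4a1 0.385 to 3.8 RPM and Cd22 0.275 to 1.28 RPM, Cd79a and Pax5 stayed at or under 0.913 RPM, and Cr2 was at 0. The part of B cell RNA in the results was not tested. The summed level of the 10 B cell markers was 1623 to 1882 RPM in FcCD70 and 1630 to 1831 RPM in untreated libraries. The 6 plasma cell markers summed to 122 to 148 RPM in FcCD70 and 135 to 158 RPM in untreated libraries, nearly all of it Xbp1 and Irf4, with Tnfrsf17 at 0. CD8 T and NK cell markers summed to 26.1 to 43.2 RPM in FcCD70 and 20.2 to 39.5 RPM in untreated libraries, mostly Klrd1, with Ncr1 at 0. The 4 myeloid markers with a row summed to 3.08 to 5.25 RPM in FcCD70 and 4.43 to 6.09 RPM in untreated libraries, and red cell and platelet markers to at most 0.0472 RPM, with Pf4 and Ppbp at 0.

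The members differed widely in level, with Tcf7 highest and Myb lowest. Per kilobase of annotated exon, Tcf7 had a mean normalized count of 15325 over the 7 libraries, and its lowest library (12995) lay far above the highest library of any other member. Satb1 came next at 1439, followed by Id2 at 967, Lef1 at 837, Bach2 at 566, Id3 and Bcl6 at 241 each, Tox at 127, Prdm1 at 75.7 and Myb at 51.4. By their ranges over libraries, Satb1 and Id2 overlapped, as did Id2 and Lef1, Id3 and Bcl6, and Prdm1 and Myb. The other neighbours in this order did not overlap. Exon length is the union of all annotated exons, which understates a gene whose long forms are rarely used, such as Satb1 with 19027 bases.

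**Figure D1:**
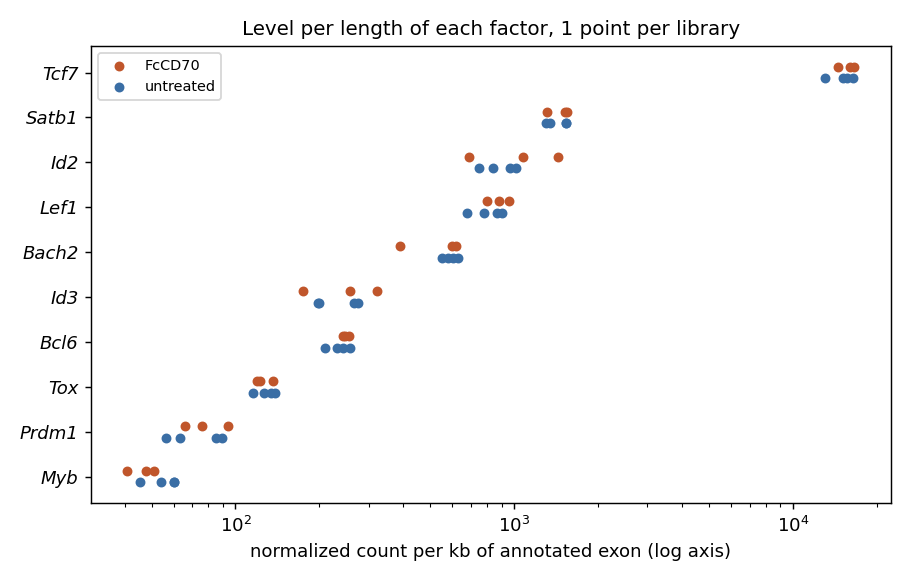
Normalized count per kilobase of annotated exon (log axis) for each of the 10 factors, with 1 point for each of the 3 FcCD70 and 4 untreated libraries. Tcf7 lies above every other factor, and Prdm1 and Myb are lowest.

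No factor differed between FcCD70 and untreated cultures past the threshold. In limma with the replicate number as a block, 0 of the 10 members had an adjusted p under 0.05, as did 0 of all 11083 genes tested (0%). At an unadjusted p under 0.05 there were 0 members and 188 genes (1.7%), of which 1.1% of genes tested were lower and 0.596% higher in FcCD70. The fitted log2 fold change (FcCD70 minus untreated, on the log2(value + 1) scale) lay above 0 for 6 members and below 0 for 4, with a median of 0.10 against -0.00351 over all genes tested. The FcCD70 and untreated ranges overlapped for all 10 members, and 2.53% of genes tested had ranges that did not. As these are bulk libraries, fewer cells of a kind and less RNA per cell cannot be told apart. The labels do not tie samples to separate mice, and p-values therefore do not reach beyond these samples, whose spread can be technical. Each gene's SE, interval and p mix its own scatter with the trend over all genes. The trend counts for 7.44 degrees of freedom and the gene's own scatter for 2.

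**Figure D2:**
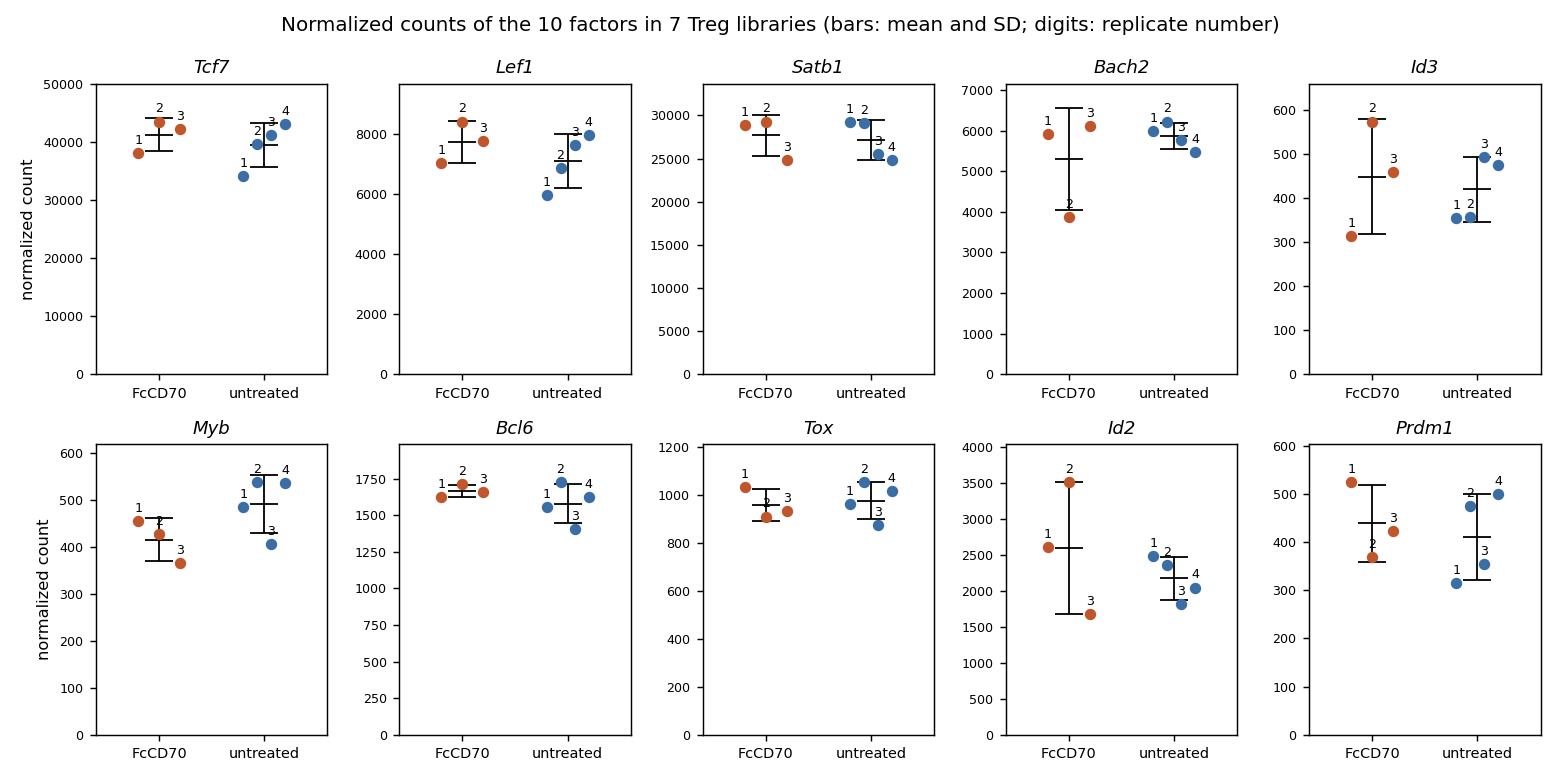
Normalized counts (linear axes from 0) of the 10 factors in each FcCD70 and untreated library, with the mean and SD of each group; digits give the replicate number. The groups overlap for every factor, and the FcCD70 library numbered 2 is lowest for Bach2 and highest for Id2 and Id3.

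Tcf7 (ENSMUSG00000000782, chromosome 11, 52252371 to 52283014, minus strand, GRCm38) encodes TCF-1, an HMG-box factor of naive and stem-like T cells. It had normalized counts of 38120, 43492 and 42152 in the FcCD70 libraries numbered 1 to 3, against 34112, 39603, 41108 and 43008 in the untreated libraries numbered 1 to 4. The lowest value was an untreated library and the highest an FcCD70 library, with the rest intermixed. The means were 41255 ± 2796 (SD, n = 3) in FcCD70 and 39458 ± 3827 (SD, n = 4) in untreated libraries, and the log2 fold change was 0.11 (SE 0.17, 95% interval -0.26 to 0.48, limma adjusted p = 0.9998). It was higher in FcCD70 in 3 of 3 same-numbered pairs, by 0.16, 0.14 and 0.04 on the log2 scale.

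Lef1 (ENSMUSG00000027985, chromosome 3, 131110471 to 131224356, plus strand) encodes the TCF-1 relative LEF-1. It had 7023, 8399 and 7735 normalized counts in FcCD70 libraries, against 5942, 6854, 7629 and 7936 in untreated libraries. Here too the lowest library was untreated 1 and the highest FcCD70 2. The log2 fold change was 0.18 (SE 0.13, 95% interval -0.10 to 0.47), with higher values in FcCD70 in 3 of 3 pairs. The pair numbered 3 differed by only 0.02 on the log2 scale, against 0.24 and 0.29 in those numbered 1 and 2. Among all 9526 genes with a mean of at least 50 that entered a search for like patterns, Pcgf6 was nearest to Lef1 and Gimap6 to Tcf7, with a mean absolute difference of centred log2 values of 0.0221 and 0.0244 over 7 libraries. Within the set, Tcf7 and Lef1 were nearest to each other, at 0.041. By the same measure the nearest gene was Itgal for Bach2 (0.0231), Aaas for Satb1 (0.0235), Klf11 for Prdm1 (0.054), Rnaseh2b for Id2 (0.0511) and Drap1 for Id3 (0.0306). It was Tpm1 for Bcl6 (0.0324), Smpd4 for Myb (0.0659) and Nsf for Tox (0.0152). Only 7 libraries stand behind each of these values.

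Myb was the other member whose 3 pairs went a single way. It encodes c-Myb, a factor that mouse Tregs need to become effector cells. Myb (ENSMUSG00000019982, chromosome 10, 21124935 to 21160984, minus strand) had 455, 427 and 366 normalized counts in FcCD70 libraries, against 484, 538, 407 and 536 in untreated libraries. FcCD70 3 was lowest and untreated 2 and 4 were highest, and the untreated library numbered 3 lay within the FcCD70 range. The means were 416 ± 45.4 (SD, n = 3) in FcCD70 and 491 ± 61.5 (SD, n = 4) in untreated libraries, and the log2 fold change was -0.19 (SE 0.16, 95% interval -0.54 to 0.16). Pairs that go a single way were found for 3 of the 10 members (2 higher, 1 lower in FcCD70) and for 18.6% of all genes tested (9.03% higher, 9.61% lower), so with 10 members the count is not far from the background.

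Bach2, the BTB and leucine zipper repressor that restrains effector differentiation, turned on the FcCD70 library numbered 2. Bach2 (ENSMUSG00000040270, chromosome 4, 32238804 to 32586108, plus strand) had 5928, 3862 and 6120 normalized counts in FcCD70 libraries, against 5983, 6225, 5765 and 5484 in untreated libraries. FcCD70 2 was lower than the other 6 libraries, which lay close together. The log2 fold change was -0.21 (SE 0.16, 95% interval -0.57 to 0.16), and without the pair numbered 2 it was 0.04 (95% interval -0.12 to 0.19). The fit without this pair has 1 residual degree of freedom and takes its spread from the trend over all genes. Its intervals, here and below, therefore do not measure a gene's own scatter. The coefficient of variation was 5.38% among untreated and 23.6% among FcCD70 libraries.

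Satb1 encodes a chromatin organizer that FOXP3 is known to repress in Tregs. Satb1 (ENSMUSG00000023927, chromosome 17, 51736187 to 51833290, minus strand) had 28845, 29297 and 24887 normalized counts in FcCD70 libraries, against 29252, 29125, 25475 and 24814 in untreated libraries. The values fell into the same levels in both groups, with the libraries numbered 1 and 2 high and those numbered 3 and 4 low. Its log2 fold change was -0.02 (SE 0.15, 95% interval -0.35 to 0.32), and the same-numbered pairs differed by -0.02, 0.01 and -0.03. The SE comes mostly from the trend over all genes, as the residual SD of Satb1 itself was 0.0152.

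Id3, the ID family member of resting Tregs, and Id2, the member of effector cells, had the widest ranges of the 10. Id3 (ENSMUSG00000007872, chromosome 4, 136143497 to 136145755, plus strand) had 313, 574 and 460 normalized counts in FcCD70 libraries, against 355, 356, 492 and 476 in untreated libraries. FcCD70 held both the lowest and the highest library. The log2 fold change was 0.14 (SE 0.20, 95% interval -0.32 to 0.59), made up of -0.18, 0.69 and -0.10 in the pairs, and -0.14 (95% interval -0.49 to 0.21) without the pair numbered 2.

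Id2 (ENSMUSG00000020644, chromosome 12, 25093799 to 25097140, minus strand) had 2611, 3508 and 1672 normalized counts in FcCD70 libraries, against 2481, 2354, 1823 and 2046 in untreated libraries. FcCD70 2 was highest and FcCD70 3 lowest, a 2.1-fold range, with all untreated libraries between them. The log2 fold change was 0.17 (SE 0.15, 95% interval -0.17 to 0.52), and -0.03 (95% interval -0.21 to 0.16) without the pair numbered 2. Id2 and Id3 together with Tcf7, Lef1 and Satb1 had their highest library in FcCD70 2, and Bach2 its lowest. Over all genes tested this library was the highest of 7 for 27.3% and the lowest for 28.4%, so being at an end in 6 of 10 members stands beside 55.7% of genes.

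Prdm1, which encodes the effector repressor Blimp-1, varied within both groups. Prdm1 (ENSMUSG00000038151, chromosome 10, 44437177 to 44528501, minus strand) had 524, 368 and 423 normalized counts in FcCD70 libraries, against 315, 474, 353 and 499 in untreated libraries. The means were 439 ± 78.9 (SD, n = 3) in FcCD70 and 410 ± 90 (SD, n = 4) in untreated libraries. The log2 fold change was 0.21 (SE 0.21, 95% interval -0.27 to 0.69), from pairs that differed by 0.73, -0.36 and 0.26. Without the pair numbered 2 it was 0.50 (95% interval 0.15 to 0.85, limma adjusted p = 0.393). That fit has 1 residual degree of freedom and takes its spread from the trend over all genes. Without the pair numbered 1 the log2 fold change was -0.05.

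Bcl6 and Tox, the remaining members, had the smallest spread. Bcl6, a BTB and zinc finger repressor of follicular T cells (ENSMUSG00000022508, chromosome 16, 23965052 to 23988852, minus strand), had 1627, 1710 and 1661 normalized counts in FcCD70 libraries, against 1555, 1725, 1407 and 1622 in untreated libraries. The FcCD70 values lay within the untreated range, and the log2 fold change was 0.10 (SE 0.13, 95% interval -0.18 to 0.38). Tox, an HMG-box factor of CD4 T cell development and of exhausted T cells (ENSMUSG00000041272, chromosome 4, 6686353 to 6991557, minus strand), had 1035, 910 and 932 normalized counts in FcCD70 libraries. It had 961, 1052, 876 and 1017 in untreated libraries, a range that held all the FcCD70 values. Its log2 fold change was -0.00444 (SE 0.14, 95% interval -0.31 to 0.30). Over the 7 libraries the coefficient of variation was 6.69% for Bcl6 and 6.94% for Tox, against 26% for Id2, 21.6% for Id3 and 18.9% for Prdm1. The median over 7896 genes with a mean of at least 300 was 12%, and 5 of the 10 members lay above it.

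**Figure D3:**
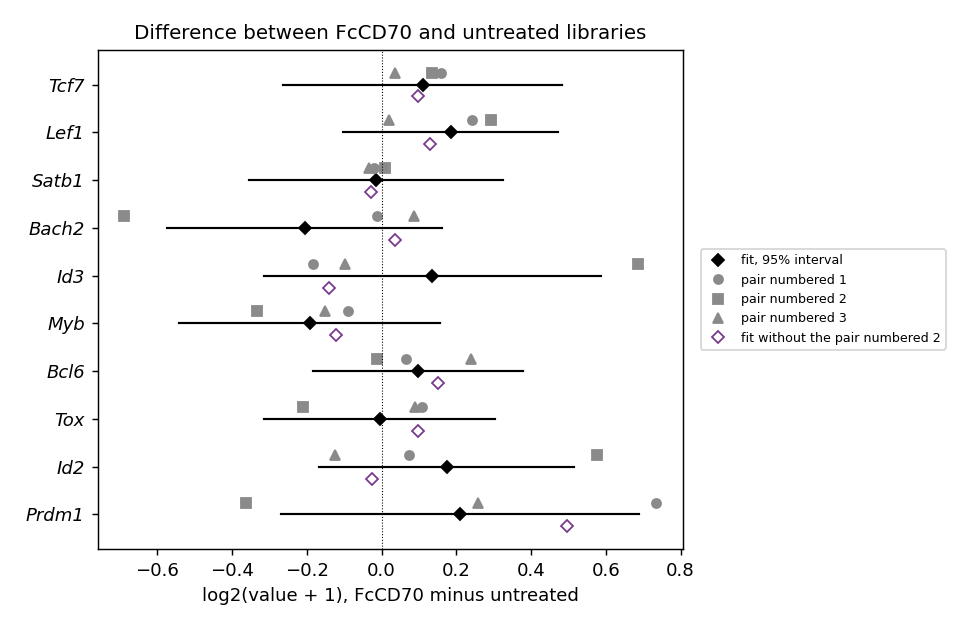
Difference between FcCD70 and untreated libraries on the log2(value + 1) scale for the 10 factors: the fit over 7 libraries with its 95% interval, the 3 same-numbered pairs, and the fit without the pair numbered 2. Every 95% interval of the 7-library fit holds 0, and leaving out the pair numbered 2 moves Bach2 to 0.04 and Prdm1 to 0.50.

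In the authors' deposited table, which carries DESeq2's column names and a mean over 8 libraries, all 10 members had an adjusted p of 0.99999. The authors' deposited table gave log2 fold changes, turned here to FcCD70 minus untreated, between -0.20 for Myb and 0.19 for Id3. The authors' deposited table and the 7-library fit had the same sign for each member other than Tox, at 0.03 and -0.00444. Both rest on these 7 libraries, so equal signs add no support. Sizes differed, with 0.09 against 0.21 for Prdm1, -0.13 against -0.21 for Bach2 and 0.19 against 0.14 for Id3.

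Ratios between antagonists or relatives within a library do not depend on how libraries were scaled. The log2 ratio of Prdm1 to Bcl6 averaged -1.94 ± 0.29 (SD, n = 3) in FcCD70 and -1.96 ± 0.25 (SD, n = 4) in untreated libraries, a difference of 0.03. The log2 ratio of Prdm1 to Bach2 averaged -3.58 ± 0.24 (SD, n = 3) in FcCD70 and -3.86 ± 0.35 (SD, n = 4) in untreated libraries, a difference of 0.28. For Id2 to Id3 the mean log2 ratio was 2.51 ± 0.61 (SD, n = 3) in FcCD70 and 2.38 ± 0.45 (SD, n = 4) in untreated libraries, a difference of 0.13. Tcf7 to Lef1 was the steadiest ratio, with a mean log2 ratio of 2.42 ± 0.04 (SD, n = 3) in FcCD70 and 2.48 ± 0.05 (SD, n = 4) in untreated libraries, a difference of -0.06. None of the 4 passed a two-sided exact permutation test: p was 0.886 for Prdm1 to Bcl6, 0.314 for Prdm1 to Bach2, 0.771 for Id2 to Id3 and 0.286 for Tcf7 to Lef1, and the adjusted values over the 4 ratios were 0.629 to 0.886. The smallest p that 3 against 4 libraries allow is 0.0286. A lone ratio at that p would still have an adjusted value above 0.05 over the 4 ratios. The adjusted test could therefore hardly pass, and no lack of difference is read from it. The groups overlapped for each ratio.

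In the fit over 7 libraries no member differed by replicate number past the threshold. In untreated libraries Tcf7, Lef1 and Id3 were higher in both libraries numbered 3 and 4 than in those numbered 1 and 2, and Satb1, Id2 and Bach2 were lower in both. Over all genes tested 30.5% were higher and 29.4% lower in both, so 6 of the 10 members stand beside 59.8% of genes. In the F test of the number term (limma, with treatment in the fit), 0 members and 15 genes (0.135%) had an adjusted p under 0.05. At an unadjusted p under 0.05 there was 1 member, Id2, and 8.02% of genes. Its p was 0.0187 unadjusted and 0.439 adjusted. The fitted level of Id2 in the libraries numbered 3 was 0.54 lower on the log2 scale than in those numbered 1. Without the FcCD70 library numbered 2 the number term passed for Id2 (limma adjusted p = 2.54e-06) and Lef1 (limma adjusted p = 0.00754), 2 of the 10 members, along with 1827 genes in all (16.5%). Without both libraries numbered 2, Tcf7 passed too (limma adjusted p = 0.042), along with 1805 of the 11083 genes tested. With only the FcCD70 library numbered 2 left out, Tcf7 did not pass (limma adjusted p = 0.0867). The fit without the single FcCD70 library was chosen after seeing the data, and both have 1 residual degree of freedom and take their spread from the trend over all genes. Over all alternatives tried, the adjusted p of Id2 for the number term ran from 2.19e-06 to 0.9998. The labels do not say what a number marks.

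**Figure D4:**
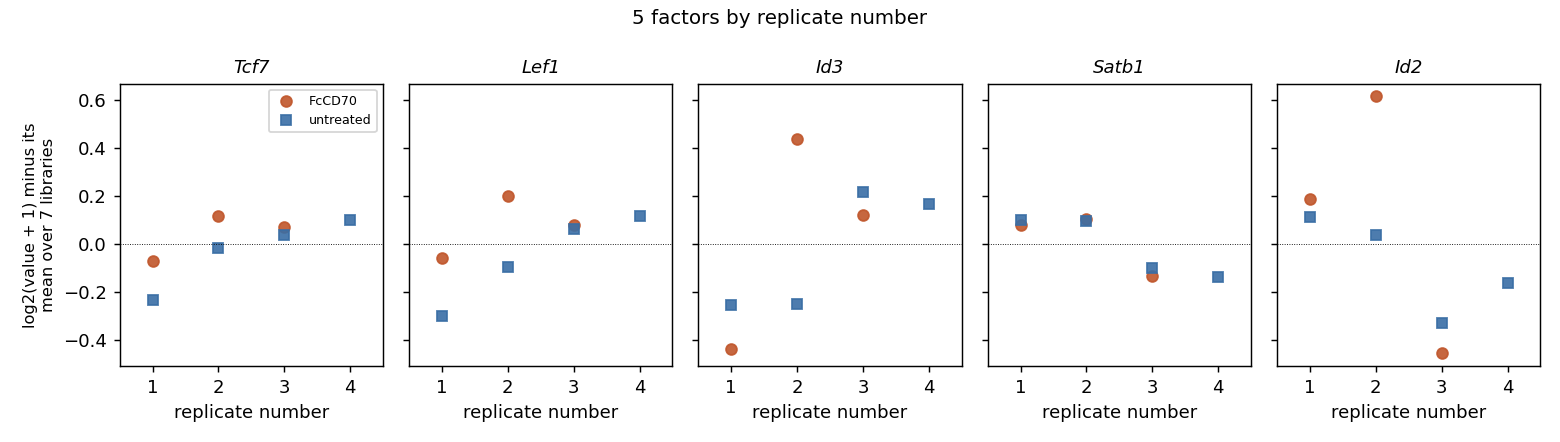
log2(value + 1) of 5 factors minus its mean over the 7 libraries, by replicate number, for FcCD70 (circles) and untreated (squares) libraries. Among untreated libraries Tcf7, Lef1 and Id3 are higher in those numbered 3 and 4 and Satb1 and Id2 lower, and the FcCD70 library numbered 2 is highest for all 5.

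Genes that act with these factors were read as groups. Of 36 effector Treg genes tested, 17 lay above and 19 below 0 (median difference -0.00647 on the log2 scale), and 0 passed the threshold. Tigit and Irf4 are named as the 2 with the smallest p, each with a limma adjusted p of 0.9998. Tigit, an inhibitory receptor, had 734 ± 146 (SD, n = 3) normalized counts in FcCD70 and 603 ± 115 (SD, n = 4) in untreated libraries. It differed by 0.37 on the log2 scale (SE 0.15, unadjusted p = 0.0303 in limma) and was higher in 3 of 3 pairs. Irf4, a factor needed for effector Tregs, had 806 ± 188 (SD, n = 3) in FcCD70 and 955 ± 186 (SD, n = 4) in untreated libraries. It differed by -0.32 on the log2 scale (SE 0.14, unadjusted p = 0.0463 in limma) and was lower in 3 of 3 pairs. In the limma F test of the number term the unadjusted p was 0.0391 for Tigit and 0.03 for Irf4. The adjusted values were 0.571 and 0.525. Of 24 resting and naive T cell genes tested, 11 lay above and 13 below 0, with a median of -0.01 and 0 past the threshold. Its 2 genes with the smallest p lay on opposite sides, Il7r at 0.42 (SE 0.13) and Bcl2 at -0.33 (SE 0.14). For the number term their unadjusted p in the limma F test was 0.0173 and 0.00137, and the adjusted values were 0.426 and 0.156.

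The partners of single members showed no gene past the threshold either. Among partners and targets of TCF-1 and LEF-1, 8 of 14 tested genes lay above 0 (median 0.00862), and the beta-catenin cofactor gene Bcl9 had the smallest p and a fitted difference of -0.36 on the log2 scale (SE 0.23). Among E proteins, other ID genes and their targets 3 of 7 lay above 0 (median -0.04), with Cxcr5, the follicular homing receptor, at -0.19 (SE 0.15). For cofactors and targets of BCL6 8 of 17 lay above 0 (median -0.00952), with Cish, a STAT5-induced inhibitor of cytokine signals, at -0.21 (SE 0.13) and lower in 3 of 3 pairs. For BACH2 partners and small MAF genes 7 of 12 lay above 0 (median 0.00512), with the haem oxygenase gene Hmox1 at -0.36 (SE 0.26). Of 11 tested paralogs of the members 4 lay above 0 (median -0.08), against 49.1% of all genes tested. The paralog with the smallest p was Mybl2, the MYB relative of dividing cells, with 197 ± 59.7 (SD, n = 3) normalized counts in FcCD70 and 277 ± 113 (SD, n = 4) in untreated libraries. Its fitted difference was -0.57 on the log2 scale (SE 0.20, 95% interval -1.01 to -0.13), with lower values in 3 of 3 pairs and an unadjusted p of 0.0167 (limma adjusted p = 0.9998). In the limma F test of the number term the unadjusted p was 0.00409 for Mybl2 and 0.00579 for Cish. The adjusted values were 0.236 and 0.269.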

How the data were processed

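Libraries of mRNA were prepared by an Illumina TruSeq method that keeps strand (per the labels' protocols). The submitters' processing notes list DESeq2, HTSeq, SAMtools, TopHat2 and the build GRCm38.p4 without saying how each was used. The strand setting of the counting is not given in the sources used here, and 6 members (Bach2, Bcl6, Lef1, Myb, Satb1 and Tox) share exon bases with a gene on the opposite strand, whose reads may be mixed in. In the deposited table each library's column is a signal: the authors' read counts divided by 1 size factor per library, as its values show: 100% are whole multiples of 1 step (within 0.01), so reads were recovered. The deposited table also holds the authors' mean signal over 8 libraries, log2 fold changes with standard errors, a score (Wald statistic) and p-values, under DESeq2's column names per the file headers; the fold changes run untreated minus FcCD70. The FcCD70 sample numbered 4 has no column; it was rebuilt as the deposited mean times 8 less the sum of the 7 columns, and entered alternatives only.

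Limma 3.58.1 (R 4.3.3) with a trend was fitted to log2(value + 1) of 11083 genes, since the values are not counts (the plan allowed for counts and an edgeR test), with the replicate number as a block because the table is named as paired; a Benjamini-Hochberg adjusted p under 0.05 was the threshold. With the block the fold change rests on 3 pairs and 2 residual degrees of freedom, and each gene's spread is drawn towards the trend over all genes. Fold changes on this scale are slightly understated for low genes. EdgeR 4.0.16 and DESeq2 1.42.0 were run on the recovered reads as alternatives. Besides the members, the 2 genes with the smallest p and a mean of at least 50 were taken from each list, of which some are named. Members, lists and tests were chosen with earlier results of these data known. Gene positions are from GENCODE M21 (GRCm38), promoters from RefSeq.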

Additional observations from a re-analysis of the deposited data

How the results depend on the processing

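In every alternative tried, 0 of 10 members passed the threshold for FcCD70, and the fold changes of Lef1, Bcl6 and Myb kept their direction in all 21. Their size moved with single libraries: unblocked, Lef1 had 0.13, and 0.046 without untreated 1 and 0.065 without FcCD70 2; Bcl6 had 0.082, and 0.029 without untreated 3; Myb had -0.24, and -0.32 without untreated 3 and -0.15 without FcCD70 3. With the block and each number left out, Lef1 ran from 0.13 to 0.27, Bcl6 from 0.026 to 0.15 and Myb from -0.24 to -0.12. The gene filters, the block fit without number 4 and the unblocked fit without untreated 4 return the main estimate by construction. Log2 fold changes of other members turned sign in some of the 21. Without FcCD70 2, both unblocked and with a covariate that sets numbers 1 and 2 apart from 3 and 4, the value was 0.040 for Bach2, -0.048 for Id2, -0.13 for Id3 and 0.012 for Tox. That covariate is balanced between the groups, so these 2 fits give equal estimates by construction. With no replicate block Satb1 had 0.027, and 0 genes passed as with the block (120 at an unadjusted p under 0.05). Deviations from the group means correlated across genes by 0.303, 0.0144 and 0.435 for the libraries numbered 1, 2 and 3. Differently numbered ones correlated by -0.362 to 0.347. FcCD70 1 was positive with untreated 2 (0.255) and negative with untreated 3 and 4 (-0.362 and -0.308). FcCD70 3 was positive with untreated 4 (0.347) and negative with untreated 1 and 2 (-0.359 and -0.293). FcCD70 1 and 3 correlated best with their own number and FcCD70 2 with untreated 1 (0.0263), so the data do not show that the numbers pair the samples. Also unblocked, Prdm1 had -0.028 without FcCD70 1 and -0.011 without untreated 1, and Satb1 had 0.10 without FcCD70 3, 0.064 without untreated 1 and 0.062 without untreated 2. Id3 had -0.0049 without untreated 1 and -0.0038 without untreated 2, Tcf7 had -0.00092 without untreated 1, and Tox had 0.012 without untreated 2. With the block and each number left out in turn, the range was -0.35 to 0.037 for Bach2, -0.026 to 0.32 for Id2, -0.14 to 0.29 for Id3, -0.052 to 0.50 for Prdm1 and -0.060 to 0.098 for Tox. Tox had 0.0025 with TMM scaling and 0.028 with the rebuilt eighth library. The ratio difference ran from -0.14 to 0.46 for Id2 to Id3 and from -0.13 to 0.16 for Prdm1 to Bcl6 with single libraries left out, and was -0.040 for Id2 to Id3 with the rebuilt library. As means of same-numbered differences (the replicate block), the ratio differences were 0.42 for Prdm1 to Bach2, 0.11 for Prdm1 to Bcl6, 0.039 for Id2 to Id3 and -0.074 for Tcf7 to Lef1, and 3 pairs cannot reach the threshold. Over all genes, FcCD70 called 0 genes with edgeR (168 at an unadjusted p under 0.05), 1 with DESeq2 (141), 6 with the covariate fit, and 0 to 19 with numbers or libraries left out (19 without the pair numbered 2, 6 without that numbered 3). The number term called 15 genes, 0 with every gene that had a read (1069 at an unadjusted p under 0.05), 2 with TMM scaling, 0 with edgeR (854), 237 with DESeq2, 117 with the rebuilt library and 29 to 1827 with numbers or libraries left out (79 without number 1, 1805 without number 2, 39 without number 3, 29 without number 4, 1827 without FcCD70 2). The cause was not tested. Counting error was 4.82% of the level for Prdm1, the member with the fewest reads, and 0.495% for Tcf7, below the spread between libraries.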

Other observations

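The FcCD70 library numbered 4, rebuilt from the authors' mean over 8 libraries, held 21031069 reads and was used above only in the alternatives that name it. Its normalized counts were 46068 for Tcf7, 8125 for Lef1, 23897 for Satb1, 5839 for Bach2, 605 for Id3, 464 for Myb, 1678 for Bcl6, 1110 for Tox, 2145 for Id2 and 417 for Prdm1. The values for Tcf7, Id3 and Tox lay above, and that for Satb1 below, each of the 7 libraries with a column. Against the untreated library numbered 4, Tcf7 differed by 0.10, Lef1 by 0.03, Id3 by 0.34, Tox by 0.13 and Myb by -0.21 on the log2 scale. Bach2 differed by 0.09, Id2 by 0.07, Bcl6 by 0.05, Satb1 by -0.05 and Prdm1 by -0.26. The share of all genes that go a single way once this pair is added was not counted, so no agreement is read from it.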
